A study of Homo sapiens with 9 samples.

Results

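Cranial neural crest cells (CNCCs) that had lacked SOX9 protein for 24h were compared with CNCCs that had lacked it for 3h, in 6 of the 9 libraries of a SLAM-seq time course. The members were all libraries whose labels give 24h or 3h, 3 cultures a side, and each 24h library was set against the 3h library of the same culture. The remaining 3 libraries, taken at 0h from the same cultures, served to sort genes by when they changed and shared in the estimate of the spread. The cells were CNCCs at passage 4, derived from H9 human embryonic stem cells in which both SOX9 alleles carry, at the C terminus, a degron made from a mutant FKBP protein, the fluorescent protein mNeonGreen and the V5 epitope. Adding dTAGV-1 at 500 nM recruits this tag to a ubiquitin ligase and the tagged protein is degraded. The labels give the relative SOX9 level as 100% at 0h and 0% at both 3h and 24h. In every group newly made RNA was marked with 4-thiouridine at 100 uM for 2 h, a pulse that opened 1 h into depletion for the 3h group and 22 h into it for the 24h group, so each value stands for RNA made in a window and not at an instant. All groups grew in a medium with BMP2, the GSK3 inhibitor CHIR-99021, bFGF and EGF, so the BMP, WNT and growth factor pathways were driven from outside throughout. The 3 cultures, named S9CC13_R6, S9CC47_R5 and S9CC47_R6, come from 2 clones and 2 differentiation batches. The clone S9CC13 is 1 culture, and untagged cells given dTAGV-1 were not analysed here, so effects of SOX9 loss, of the compound and of time in culture between 3h and 24h cannot be told apart.

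SOX9 is a transcription factor of the SOX family that binds DNA as a dimer or with partner factors. It acts early in neural crest specification and later drives cartilage genes such as the type II collagen gene in the crest-derived skeleton of the face. When a factor is removed at once, transcripts under its direct control can change within the first labelling window, while others change only after the products of those transcripts have themselves turned over. In SLAM-seq, 4-thiouridine in new RNA is alkylated and read as a T-to-C change, so reads with such changes (T>C reads) come mostly from RNA made during labelling, and the remaining, unconverted reads come mostly from older RNA.

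The 3h libraries held 17808007 to 26719708 reads assigned to genes, of which 3130673 to 4846687 were T>C reads, and the 24h libraries held 19306725 to 25703677, of which 3944275 to 5475800 were T>C reads. One library stood apart. The 3h library of S9CC13_R6 had the lowest share of T>C reads (15.9%, against 18.1% and 19.5% in the other 3h cultures) and the most extreme score, −0.71, on a surrogate variable, an axis of variation among the T>C libraries estimated beside time and batch. Results are therefore given with and without this culture where the call depends on it. The surrogate variable was higher at 24h than at 3h in every culture. Its scores were −0.71 and 0.03 in S9CC13_R6, −0.13 and 0.08 in S9CC47_R5, and 0.30 and 0.54 in S9CC47_R6. Fits that include this variable thus cannot fully separate it from the difference between the times. The cell type label held in part. Of 20 cranial neural crest markers, 19 passed the filter on low reads. Their summed T>C level was 53789 to 55702 normalized reads at 3h and 68097 to 70534 at 24h. Of the 19, 7 were called higher and 0 lower (36.8% called, against 4.4% of all genes). SOX9, the tagged gene, is among the 7 and holds a large part of the sum, its reads being given below. SOX10, a marker of early crest, was listed at 0. Pluripotency markers summed to 1109 to 1407 normalized T>C reads at 3h and 1212 to 1437 at 24h, most of it LIN28A, while POU5F1 and NANOG were at 0 or close to it. Neural progenitor markers summed to 755 to 1134 and 685 to 1025, most of it NES, with SOX1 and PAX6 at or near 0, and in neither list was a gene called between 3h and 24h. Glia and Schwann cell markers summed to 56.8 to 71.9 at 0h, 4.67 to 15.9 at 3h and 2.08 to 4.74 at 24h. ERBB3, a neuregulin receptor, was called lower at 24h against 0h in T>C reads and at 24h against 3h in total reads, and S100B was near 0 throughout. The part of these markers in the results was not tested. Chondrocyte markers summed to 793 to 888 at 3h and 441 to 673 at 24h, most of it COL2A1. In bulk libraries such as these, fewer cells of a type and less RNA per cell cannot be told apart.

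The T>C reads of SOX9 itself were higher at the later time. Its normalized T>C reads were 9493, 9961 and 9914 at 0h, 18399, 15047 and 17069 at 3h, and 23542, 19883 and 20923 at 24h. All triplets of values follow the order S9CC13_R6, S9CC47_R5, S9CC47_R6. All 24h libraries lay above all 3h libraries. The change was 0.35 ± 0.0956 on the log2 scale (SE, DESeq2 adjusted p = 0.0167), and the call was lost without S9CC13_R6 (adjusted p = 0.64). The tag acts on the protein, so the SOX9 transcript (hg38 chromosome 17, 72121020 to 72126416) does not test the depletion. On the level of whole libraries, T>C reads made up 17.9% ± 1.82 of all reads at 3h and 20.5% ± 0.752 at 24h (SD, n = 3), which is 2.65 percentage points more and higher in 3 of 3 cultures. With 3 pairs the exact sign-flip test gives p = 0.25 (two-sided) and the exact permutation test p = 0.1, each the smallest the design allows.

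Among 12037 genes tested in T>C reads, 530 were called at 24h against 3h at an adjusted p below 0.1 (4.4%), of which 268 were higher at 24h (2.23%) and 262 lower (2.18%). All 530 moved the same way in all 3 cultures, while of all 12037 genes tested 2650 were higher and 2628 lower in all 3. In 429 of the 530 the 3h and 24h libraries did not overlap, while 18.2% of all genes tested did not overlap. These values are relative to the typical gene. When the T>C reads were scaled by total reads instead, the median of all genes moved to 0.19 and 1359 genes were called higher against 114 lower. The study's own design, without the pairing of cultures but with batch and a surrogate variable, called 137 genes, and 122 of the 530 were among the genes it called. Leaving out S9CC13_R6 left 60 genes. Against 0h, the count was 172 genes at 3h (1.43%) and 722 genes at 24h (6.0%).

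The 530 genes fell into 4 kinds by what they had done before 3h. Those that returned had been called at 3h against 0h and were called in the opposite direction afterwards, 28 after a rise and 5 after a fall. Those that grew further were called in the same direction in both intervals, 11 as a rise and 7 as a fall. Late-only genes were not called at 3h against 0h but were called in the same direction in the later interval and over both, 124 as a rise and 113 as a fall. The other 242 genes were called between the times only, 128 higher and 114 lower at 24h, and were called in neither comparison with 0h. The contrasts share libraries, so a 3h library that deviates moves the first and second intervals in opposite directions. The unconverted reads, which share no read with the T>C reads and called 10.1% of genes between the times, went the same way between 3h and 24h in 25 of 28 and 5 of 5 returning genes, 11 of 11 and 7 of 7 that grew further, 123 of 124 late rises and 107 of 112 late falls, and in 123 of 128 and 106 of 113 of those called between the times only. Over all genes both kinds of read had the same direction in 70.4%. Both kinds come from the same libraries, so their agreement does not guard against a library that deviates.

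**Figure D1:**
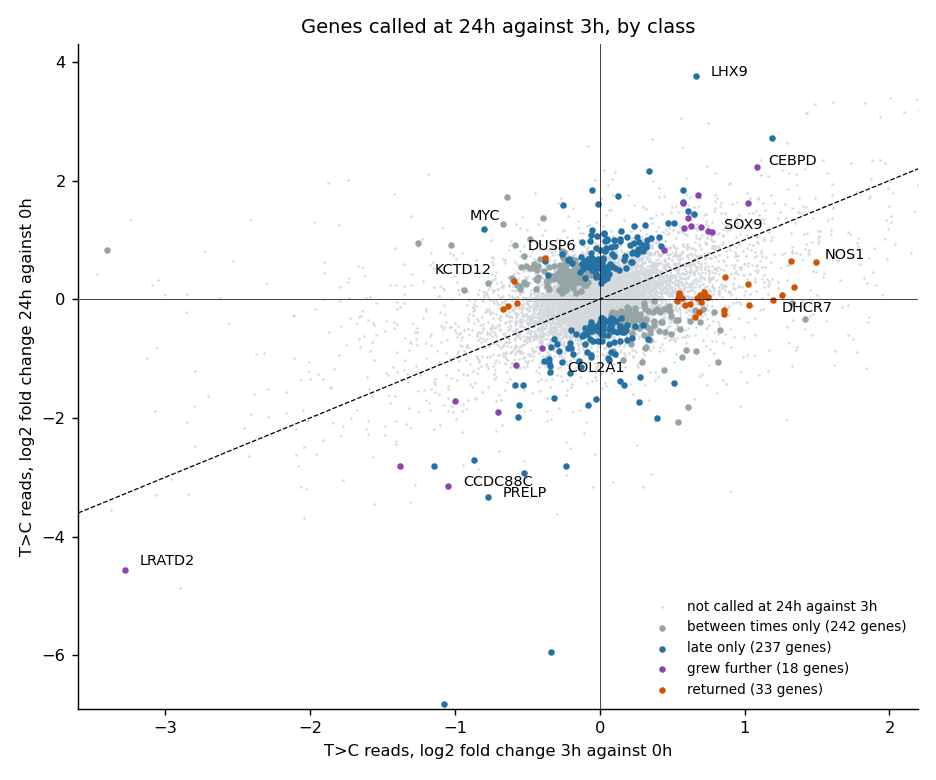
Each point is a gene tested in T>C reads, with its log2 fold change at 3h against 0h on the x axis and at 24h against 0h on the y axis. On the dashed diagonal nothing changed between 3h and 24h. Coloured points are the 530 called genes by class. The returning genes lie away from 0 on the x axis and mostly near 0 on the y axis, with DUSP6, INSIG1, MSMO1 and NOS1 called above 0h there. The late-only genes lie mostly near 0 on the x axis. Outside the axes are 66 points, 0 of them called.

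Genes of cholesterol synthesis made up the largest group that came back. Cells make cholesterol from acetyl-CoA through mevalonate, and transcription of nearly every step is driven by SREBP2, the product of SREBF2, when sterol in the endoplasmic reticulum is low. Of 25 sterol genes, all tested, 18 had been called higher at 3h against 0h, where 1.43% of all genes were called. Of the 25, 15 were called lower at 24h against 3h (60%, against 2.18% of all genes) and 0 higher. Their median log2 fold change was 0.74 in the first interval (3h against 0h), −0.60 in the second (24h against 3h) and 0.07 over both, where the medians of all genes were −0.01, 0.00 and −0.00. The median at 24h against 3h was −0.48, −0.68 and −0.58 in the 3 cultures. The number called lower was 10 without S9CC13_R6 and 14 when T>C reads were scaled by total reads.

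DHCR7 (hg38 chromosome 11, 71428193 to 71452868), which catalyses the last reduction to cholesterol, moved most among the abundant members. Its normalized T>C reads were 350, 362 and 376 at 0h, 777, 944 and 777 at 3h, and 407, 331 and 340 at 24h. Each 3h library was far above the others, and the 24h libraries were back around the 0h level. The change at 24h against 3h was −1.21 ± 0.143 (log2, SE, DESeq2 adjusted p = 6.25e-14), and at 24h against 0h it was −0.02. HMGCS1, which commits acetyl groups to the pathway, had 5828, 7230 and 6665 reads at 3h and 4050, 3702 and 3839 at 24h, with no overlap, and fell by 0.76 (adjusted p = 1.39e-10). LSS, which closes the sterol rings, went from 220, 301 and 281 to 138, 107 and 117, a fall of −1.13 ± 0.209 (adjusted p = 1.59e-05). MVK, the mevalonate kinase, went from 812, 750 and 489 to 381, 331 and 273 (−1.05), and NSDHL, which removes methyl groups from the sterol, from 972, 811 and 632 to 462, 437 and 340 (−0.96). In both the lowest 3h library was above the highest 24h library. MVK overlaps MMAB on the other strand, and the strand setting of the counting is not given in the sources used here. SQLE, FDFT1, FDPS, MVD, ACAT2, MSMO1 and INSIG1 also fell.

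The return was not complete in every member. INSIG1, whose protein holds back SREBP2 when sterol is plentiful, had 803, 919 and 707 reads at 0h, 1949, 2167 and 1903 at 3h, and 1431, 1351 and 1022 at 24h. It fell by 0.67 from 3h and was still 0.64 above 0h. Of the genes that returned after a rise, INSIG1, MSMO1 and NOS1 were the 3 called above 0h at 24h. Of the sterol genes that had risen at 3h, 5 were not called afterwards, IDI1, CYP51A1, SC5D and STARD4 among them. IDI1, the isomerase that feeds the farnesyl branch, showed −0.03 after 3h and 0.93 over both intervals, and CYP51A1, which takes a methyl group off lanosterol, showed −0.28 and 0.80. EBP and SREBF2 itself fell after 3h without a call in the first interval, by 0.64 and 0.49.

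**Figure D2:**
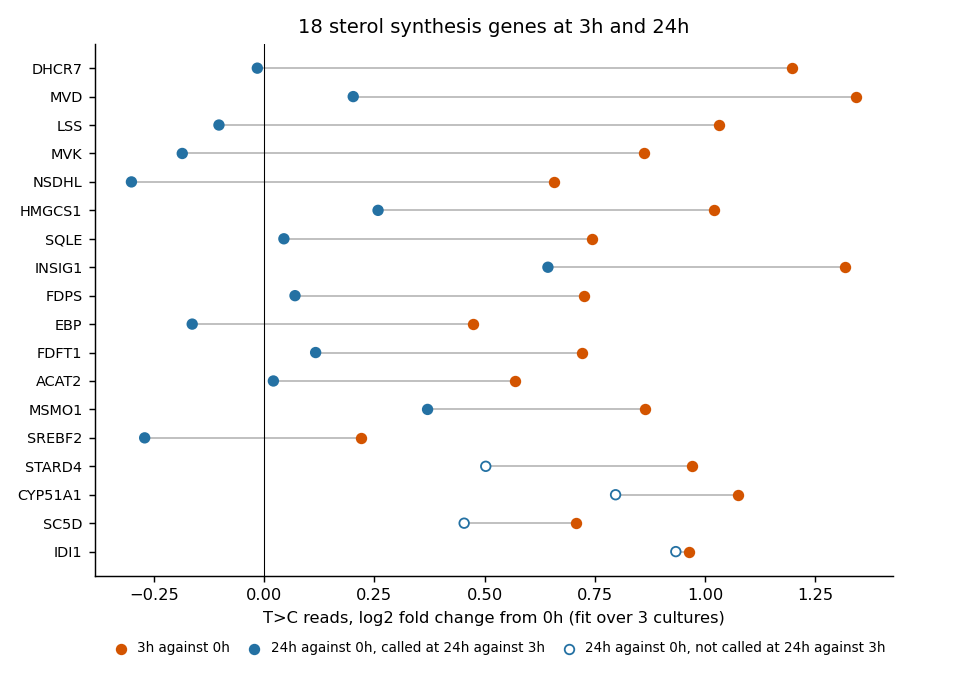
The 18 sterol genes named in the text are shown with their log2 fold changes in T>C reads against 0h, at 3h (orange) and 24h (blue, filled where the gene was called at 24h against 3h). For DHCR7 the points stand at 1.20 and −0.02, whereas for IDI1 they stand at 0.96 and 0.93.

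SREBP2 binds sterol response elements in the promoters of these genes. The classic form of the element, TCACNCCAC, was searched on both strands in the 250 bases before the RefSeq start. It was found in 1 of the 18 sterol genes that have a promoter in the table used, the gene for SREBP2 itself, in 1 of 11 called sterol genes, and in 0.8388% of 9895 promoters of tested genes. The match and its flanks are shown because this gene is both the regulator and a member that fell. It lies at chr22:41832962-41832990 (GRCh38.p14, plus strand, RefSeq), from 143 to 115 bases before the start, and the capitals mark the matched letters.
SREBF2: tgacgcgccaTCACCCCACgcaccgcttc
These letters say nothing on binding, and a promoter without them can hold other forms of the element.

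A few fatty acid synthesis genes had the same course. Of 16, 15 were tested, and FASN, ACLY and LPIN1 were called lower (20%, against 2.18% of all genes) and 0 higher. The median was −0.22 at 24h against 3h after 0.45 at 3h against 0h. FASN, the synthase of palmitate, had 1836, 2146 and 1847 reads at 3h and 1384, 1525 and 1069 at 24h, which do not overlap, and fell by 0.56 (adjusted p = 0.000764). ACLY, which supplies cytosolic acetyl-CoA to both fat and sterol synthesis, fell by 0.48, and LPIN1, a phosphatidate phosphatase of triglyceride synthesis, fell by 0.63. Without S9CC13_R6 the adjusted p was 0.17 for ACLY, 0.071 for FASN and 0.089 for LPIN1.

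The remaining 12 genes that returned after a rise are in neither list. They include SLC25A1, the mitochondrial citrate carrier, TMEM97, a sterol-responsive membrane protein, and PCYT2, which makes CDP-ethanolamine for membrane lipid, so the metabolic genes of this class reach beyond the lists. PCYT2 went from 246, 175 and 208 reads at 3h to 113, 87.2 and 91.9 at 24h, a change of −1.11, with 0.13 as the adjusted p without S9CC13_R6. It overlaps ANAPC11 and NPB on the other strand. NOS1, the neuronal nitric oxide synthase, had 72.9, 60.5 and 119 reads at 0h, 230, 208 and 263 at 3h, and 111, 125 and 149 at 24h. Its 24h libraries lay between the other times with no overlap with 3h (−0.87 ± 0.21, adjusted p = 0.00407), and the call was lost without S9CC13_R6 (0.65). NKD1, an inhibitor of WNT signalling that WNT itself induces, went from 1311, 1447 and 774 to 833, 849 and 514. It was lower at 24h in every culture although the groups overlap, fell by 0.68 (adjusted p = 3.22e-06), and did not pass without the pairing (0.55). Of the 28 genes of the class, 14, 17 and 18 were still called at 24h against 3h without S9CC13_R6, S9CC47_R5 and S9CC47_R6 in turn. In those fits 10, 10 and 18 genes met the class, which also needs a call at 3h against 0h.

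Only 5 genes returned after a fall, and DUSP6 overshot. DUSP6 (chromosome 12, 89347235 to 89352501) is the phosphatase that switches off ERK and is itself induced by ERK signalling. It had 2497, 2565 and 2494 reads at 0h, 1851, 1709 and 2311 at 3h, and 3779, 3623 and 4948 at 24h. Each 3h library was below each 0h library and each 24h library above both. It changed by −0.38 in the first interval (adjusted p = 0.0672), by 1.07 ± 0.113 in the second (1.09e-17) and by 0.69 over both (1.35e-07). The other returning genes came back to about where they began. KCTD12, an auxiliary subunit of GABA-B receptors, went from 729, 891 and 727 at 0h to 476, 513 and 571 at 3h and 957, 881 and 1053 at 24h, a rise of 0.89 after 3h. FRZB, a secreted WNT antagonist of cartilage, went from 456, 550 and 593 at 3h to 791, 686 and 805 at 24h (0.51), and ended at −0.12 against 0h. PHLDB2, a cortical microtubule anchor, rose by 0.51, and FAM110B by 0.50. Without S9CC13_R6 only DUSP6 and KCTD12 passed at 24h against 3h (9.9e-08 and 0.0084). In that fit 0 genes met the class, which also needs a call at 3h against 0h.

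DUSP6 was 1 of 6 ERK feedback genes that rose, of 17 listed and tested, and 1 fell (41.2% called, against 4.4% of all genes). The list median was −0.25 in the first interval and 0.21 in the later one. IL17RD, a membrane inhibitor of FGF signalling, had 770, 778 and 1051 reads at 3h and 1431, 1303 and 1636 at 24h and rose by 0.76 (adjusted p = 9.6e-06). SPRY1, an inhibitor of the same route, rose by 0.73, the nuclear ERK phosphatase DUSP5 by 1.21, and SPRED1 and SPRED2, which restrain RAS, by 0.34 and 0.84. The ETV4, ETV5 and ETV1 factors downstream of ERK showed −0.12, −0.14 and 0.04 and did not pass. EPHA4, an ephrin receptor kept in the list as an FGF-responsive gene, went from 757, 430 and 656 to 532, 277 and 368 and fell by 0.66, lower in each culture with overlapping groups. Without S9CC13_R6 the adjusted p was 0.089 for IL17RD, 0.061 for EPHA4, 0.46 for SPRY1, 0.76 for DUSP5 and 0.92 for both SPRED genes.

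Some genes already moving at 3h moved further. CEBPD, a transcription factor of stress and differentiation, had 81.3, 85.9 and 67.0 reads at 0h, 169, 165 and 158 at 3h, and 440, 323 and 333 at 24h. The times form 3 separate steps, and the second step was 1.14 ± 0.183 (log2, SE, adjusted p = 2.05e-07). JUN, a subunit of the AP-1 factor, went from 123, 258 and 175 at 3h to 365, 433 and 354 at 24h, a rise of 1.08. TNFRSF11B, the decoy receptor that restrains osteoclasts, went from 442, 295 and 320 to 834, 693 and 636 (1.05, adjusted p = 2.36e-11). None of these pairs overlapped. MSX1, a homeobox factor of facial mesenchyme that BMP induces, was among the most abundant with 9921, 12426 and 9685 reads at 3h and 13757, 16886 and 15224 at 24h, a rise of 0.52. ACKR3, a scavenging chemokine receptor, rose by 0.76, and ZIC2, a crest and neural plate factor, by 0.61. PTGS2, the inducible cyclooxygenase, rose by 0.62, CDKN1C, a cell cycle inhibitor, by 0.60, FGF18, a ligand of bone and cartilage growth, by 0.41 and DCN, the matrix proteoglycan decorin, by 0.39. Without S9CC13_R6 only 2 genes met the class of a rise in both intervals. The calls at 24h against 3h of CEBPD, JUN, TNFRSF11B and MSX1 held there, at 0.045, 0.088, 0.00011 and 0.025. The others lost theirs, ACKR3 at 0.30, ZIC2 at 0.54, SOX9 at 0.64, and PTGS2, CDKN1C, FGF18 and DCN at 0.91 or more.

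A set of 7 genes fell at both steps. CCDC88C (chromosome 14, 91271323 to 91417844), a cytoplasmic protein that binds Dishevelled in WNT signalling, had 430, 297 and 443 reads at 0h, 200, 178 and 181 at 3h and 50.3, 33.2 and 48.9 at 24h. It dropped in every culture at each step, by −2.09 ± 0.214 in the second (adjusted p = 9.43e-19). LRATD2 had already lost most of its T>C reads by 3h, from 322, 333 and 344 at 0h to 51.6, 19.1 and 38.5, and at 24h had 16.1, 10.4 and 16.3. Its second step was −1.29 ± 0.345 (adjusted p = 0.0127) and was not called without S9CC13_R6 (0.85). FOXD2, a forkhead factor of facial and somitic mesenchyme, went from 224, 269 and 209 to 136, 112 and 68.2, a fall of 1.20 on the log2 scale. SYNPO, an actin-binding protein, showed −0.71, GDF11, a TGF-beta family ligand, −0.53, and BMP7, a BMP ligand, −0.41, and these 3 lost the call without S9CC13_R6 (0.88, 0.74 and 0.74). DHRS3, a retinal reductase that limits retinoic acid, completes the class at −1.42 (adjusted p = 0.0388, and 0.91 without S9CC13_R6). The genes that grew further as a rise had a high share of T>C reads at 0h, with a median of 55.4% where the median over all genes tested was 27.8%, and those that fell further had 25.1%.

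**Figure D3:**
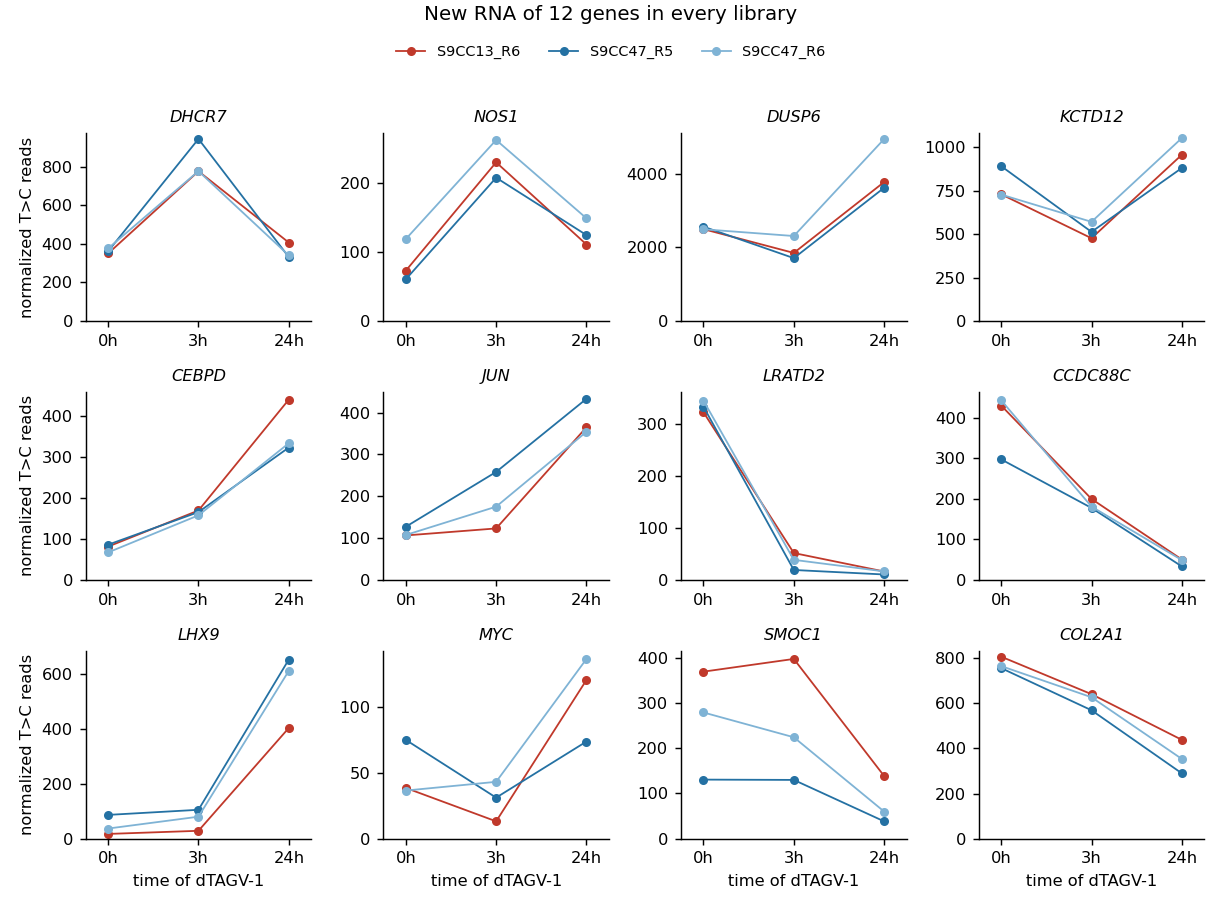
Normalized T>C reads of 12 genes at 0h, 3h and 24h, with a point and line for each culture. DHCR7 and NOS1 peak at 3h, DUSP6 and KCTD12 dip there, CEBPD and JUN climb and LRATD2 and CCDC88C fall at both steps, and LHX9, MYC, SMOC1 and COL2A1 change mainly after 3h.

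Among late-only rises that averaged 50 or more normalized T>C reads and were called with and without the pairing, the 5 largest were LHX9, MYC, CITED2, CCL2 and RGS4. LHX9 (chromosome 1, 197911902 to 197935478), a LIM homeobox factor, had 17.7, 87.1 and 37.3 reads at 0h, 29.1, 106 and 80.5 at 3h, and 404, 653 and 612 at 24h. The 24h libraries were clear of all others, and the change after 3h was 3.09 ± 0.255 (log2, SE, adjusted p = 1.13e-29), against 0.67 before it (0.539). MYC, the growth regulator, had 13.2, 31.2 and 43.2 reads at 3h and 120, 73.7 and 136 at 24h, and rose by 1.98. CITED2, a coactivator-binding protein, went from 19.8, 39.0 and 66.5 to 103, 146 and 202 (1.89), and CCL2, a chemokine that draws monocytes, from 22.5, 48.5 and 65.3 to 138, 131 and 202 (1.83). RGS4, which shortens G protein signals, rose by 1.81, from 111, 97.9 and 59.5 to 266, 288 and 387. No 3h library of these genes reached a 24h library. Without S9CC13_R6 MYC was not called (0.38), and LHX9, CITED2, CCL2 and RGS4 were.

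Of the genes that BMP induces, the 4 ID genes and MSX1 rose. The ID genes encode small inhibitors of basic helix-loop-helix factors and are induced directly by BMP through SMAD proteins. Of 24 BMP and TGF-beta genes listed, 18 were tested and 5 were called higher, namely ID1, ID2, ID3, ID4 and MSX1. Those called were 27.8%, against 2.23% of all genes, while 0 were lower and 13 did not pass. The median was 0.62 after 0.14 at 3h against 0h. ID1 had 349, 733 and 307 reads at 0h, 441, 650 and 391 at 3h and 984, 1008 and 861 at 24h, and rose by 1.00 ± 0.173 (adjusted p = 3.04e-06). Its 24h libraries all lay above the rest. ID3 had 898, 2224 and 1725 reads at 3h and 2598, 3460 and 2926 at 24h and rose by 0.97, ID4 by 0.67 and ID2 by 0.56. The inhibitory SMADs SMAD6 and SMAD7 showed 0.41 and 0.81 and did not pass. Without S9CC13_R6, 3 of the 5 calls stood (ID1, ID3 and MSX1), ID2 being at 0.55 and ID4 at 0.99, and 3 and 2 members were called without S9CC47_R5 and S9CC47_R6.

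Other early-response and signalling genes followed in small numbers. In the immediate-early list, 22 of 29 were tested and JUN, EGR1 and MYC rose (13.6%, against 2.23% of all genes). FOS and JUNB showed −0.60 and −0.14 and did not pass. EGR1, a growth-factor-induced zinc finger factor, had 95.3, 89.2 and 72.3 reads at 3h and 266, 116 and 180 at 24h (1.09, adjusted p = 0.00318, and 0.86 without S9CC13_R6). Of 7 Notch targets tested, of 11 listed, HES1 and HEY1, the repressors induced by Notch cleavage, rose by 1.27 and 0.57 (28.6%, against 2.23% of all genes). The list median was 0.50, and 0 were called without S9CC13_R6. HES1 had 151, 153 and 315 reads at 3h and 552, 269 and 650 at 24h, higher in every culture with overlapping groups. CYP1B1, a cytochrome P450 induced through the aryl hydrocarbon receptor, went from 49.0, 58.0 and 82.9 to 212, 175 and 185, a rise of 1.61 (adjusted p = 1.05e-07, and 0.026 without S9CC13_R6). It overlaps RMDN2 on the other strand. NQO1, a quinone reductase, and TIPARP, a repressor of the same receptor, rose by 0.58 and 0.51 but not without that culture (0.73 and 0.86). CYP1B1, NQO1 and TIPARP were the calls in a list of 10 genes of FKBP and small-molecule responses. Of the list, 9 were tested (33.3% called higher, against 2.23% of all genes). FKBP1A, FKBP4 and FKBP5 showed −0.19, −0.19 and 0.29 and did not pass.

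Some crest and facial transcription factors were called between the times, more of them higher than lower. Of 55 listed, 44 were tested, and 9 were called higher and 2 lower (25% called, against 4.4% of all genes). The other 33 did not pass, and the median was 0.26. TFAP2A, a specifier of crest, had 2901, 3065 and 3329 reads at 3h and 3794, 4014 and 5572 at 24h and rose by 0.51 (adjusted p = 0.00109), and TWIST1, a mesenchymal factor, rose by 0.39 from 2213, 1711 and 1970 to 2428, 2638 and 2641. SNAI2, a repressor of epithelial genes, rose by 0.78, PRRX2 by 0.78, SOX4 by 0.30, SOX11 by 0.31 and TFAP2B by 0.27. FOXC1, a forkhead factor of periocular and jaw mesenchyme, went the other way, from 1619, 1133 and 1308 to 962, 697 and 858, a fall of 0.69 on the log2 scale (adjusted p = 3.13e-08) with no overlap. Without S9CC13_R6, 3 were called higher (LHX9, MSX1 and TFAP2A) and FOXC1 lower, and without S9CC47_R5 and S9CC47_R6 3 and 2 were called higher. MSX1 is in the BMP list too, and several of these factors are among the crest markers given above.

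Low-level genes aside (under 50 normalized T>C reads on average), the 5 largest late-only falls called with and without the pairing were PRELP, ISLR2, SMOC1, CNTN4 and OSBPL10. PRELP is a leucine-rich proteoglycan of cartilage and other connective tissue. It had 90.6, 106 and 93.7 reads at 0h, 83.3, 52.0 and 42.01 at 3h and 13.3, 6.23 and 9.63 at 24h. Its 24h libraries were far below the rest and the change after 3h was −2.57 ± 0.409 (adjusted p = 2.05e-07). SMOC1, a secreted calcium-binding protein that modulates BMP, went from 397, 130 and 224 to 138, 38.4 and 60.01, lower in each culture by a similar factor although the groups overlap (−1.71 ± 0.209, adjusted p = 6.89e-13). ISLR2, a neuronal membrane protein, fell by 1.92 on the log2 scale, CNTN4, an axonal adhesion molecule, by 1.61 and OSBPL10, an oxysterol-binding-protein relative, by 1.59. The fall of OSBPL10, which overlaps ZNF860 on the other strand, was from 267, 151 and 191 to 53.1, 69.6 and 73.3. Without S9CC13_R6 CNTN4 was not called (0.35), and the other 4 were.

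Cartilage genes known to depend on SOX9 were called at different steps. COL2A1 (chromosome 12, 47972967 to 48004554), the type II collagen of cartilage, had 806, 756 and 765 reads at 0h, 640, 569 and 627 at 3h, and 438, 290 and 353 at 24h. Its libraries stepped down at each time without overlap. The first step of −0.34 was not called (adjusted p = 0.395), and the second, of −0.78 ± 0.136, was (4.08e-06). SOX6, a partner of SOX9 at cartilage enhancers, stood at 678, 624 and 639 at 0h and 737, 649 and 646 at 3h, and only then dropped to 412, 333 and 400 (−0.83, adjusted p = 5.1e-08). SOX5, the other partner, ran ahead, from 297, 225 and 255 at 0h to 143, 134 and 152 at 3h and 107, 102 and 117 at 24h. Its second step of −0.40 did not pass (0.306), nor did that of TENT5B (−0.65, 0.26), a poly(A) polymerase whose reads had gone from 225, 195 and 240 to 67.5, 72.8 and 32.7 by 3h. Whether SOX5 and SOX6 differ in the second step was not tested. COL11A1, the type XI collagen that nucleates cartilage fibrils, went from 745, 514 and 517 to 447, 351 and 438 (−0.51, adjusted p = 0.0187), and was called neither without the pairing (0.28) nor without S9CC13_R6 (0.96). ZNF219, a cofactor of SOX9 on the type II collagen gene, fell by 0.87 and was not called without S9CC13_R6 (0.55). SOX6 and ZNF219 each overlap other genes on the opposite strand.

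As lists, cartilage matrix had 18 of 30 genes tested, with 2 higher (LUM and DCN) and 3 lower (COL2A1, COL11A1 and PRELP) and a median of −0.20. Chondrogenic regulators had 16 of 20 tested, with 0 higher and 2 lower and a median of −0.02. The called shares were 27.8% and 12.5%, against 4.4% of all genes. ACAN and most other late cartilage genes were too low to test. LUM, a proteoglycan of fibrous matrix, went from 1008, 1270 and 1518 to 1838, 1732 and 2313 and rose by 0.64, and COL1A2, a chain of the type I collagen of bone and skin, from 562, 623 and 664 to 932, 826 and 1197, a rise of 0.67 (adjusted p = 0.000194). Neither was called without S9CC13_R6 (0.67 and 0.20). COL18A1, a basement membrane collagen that overlaps SLC19A1 on the other strand, had 29.1, 29.5 and 15.2 reads at 3h and 9.48, 1.04 and 3.70 at 24h (−2.41, adjusted p = 0.0106, and 0.17 without S9CC13_R6). In the guidance and adhesion list, 41 of 45 were tested and 1 was higher (SEMA3A, 0.56) and 3 lower (CDH2, SEMA5A and EPHA4, at −0.72, −0.67 and −0.66). The called share was 9.76%, against 4.4% of all genes. Without S9CC13_R6, SEMA5A and EPHA4 kept the call (0.054 and 0.061), and CDH2 and SEMA3A did not (0.49 and 0.30).

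A few more late-only genes were picked after their values were seen and form no list. STRA6, a retinol transporter, went from 307, 193 and 146 to 165, 120 and 98.5 and fell by 0.73 on the log2 scale (adjusted p = 0.0168). CRABP1, a binding protein of retinoic acid, fell by 0.66, while CRABP2, its relative that hands retinoic acid to the nuclear receptor, rose by 0.71, from 1756, 3189 and 3176 to 4046, 4294 and 4544 with no overlap. None of the 3 was called without S9CC13_R6 (0.88 for STRA6, 0.92 for CRABP1 and 0.49 for CRABP2).

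The late-only classes and the 242 genes called between the times only rest heavily on S9CC13_R6. Without it 34 of the 237 late-only genes and 3 of the 242 others were still called, whereas without S9CC47_R5 80 and 25 were, and without S9CC47_R6 80 and 28. The median of the late rises was 0.85, 0.55 and 0.65 in the 3 cultures and that of the late falls −0.74, −0.64 and −0.53, and for the genes called between the times only it was 0.84, 0.48 and 0.58 in those higher and −0.64, −0.57 and −0.57 in those lower. In the study's design the late rises had a median of 0.46 in place of 0.69 and the genes called higher between the times only 0.39 in place of 0.67, and with the pairing and a surrogate variable together these were 0.45 and 0.37. The between-times class had been 0.24 lower or higher at 3h against 0h at its median, the opposite of the later change. SNAI2, ID3, ID4, SPRY1, EBP and SREBF2 above are of this class, as is CDK1, the mitotic kinase, at 508, 686 and 827 at 3h and 998, 808 and 1160 at 24h (0.57, adjusted p = 0.0143, and 0.99 without S9CC13_R6).

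Some housekeeping and stress lists had 0 calls, and others had few calls but a share above that of all genes (4.4%). The YAP and TEAD, clock, hypoxia and glycolysis, p53, G1/S, cullin and VHL, and nucleolar lists, 7 in all with 151 genes tested, had 0 called in either direction in T>C reads by DESeq2, with 26 at an unadjusted p below 0.05 (17.2%, against 15.6% of all genes) and 5 called by edgeR (3.31%, against 6.74%). Mitosis had 1 gene higher and 1 lower of 35 tested (5.71%), the respiratory chain 2 and 1 of 40 (7.5%), and heat shock 1 and 1 of 13 (15.4%). The amino acid and endoplasmic reticulum stress list had 1 and 2 of 26 (11.5%). The proteasome had 2 of 31 (6.45%) and NRF2 targets (NQO1 and the ferritin gene FTL) 2 of 14 (14.3%) higher and 0 lower. Without S9CC13_R6, 0 members of any of these lists were called. Of 44 cytosolic ribosomal protein genes tested, of 45 listed, RPL4 was higher and 5 were lower (13.6%), with a median of −0.19. Without S9CC13_R6, 0 were called. Scaling by total reads, which moved the median of all genes by 0.19, gave a median of 0.00, with 4 members higher and 0 lower. RPLP2 went from 9875, 10160 and 8411 to 7146, 7446 and 6532 and fell by 0.43. It was not called without S9CC13_R6 (0.51).

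**Figure D4:**
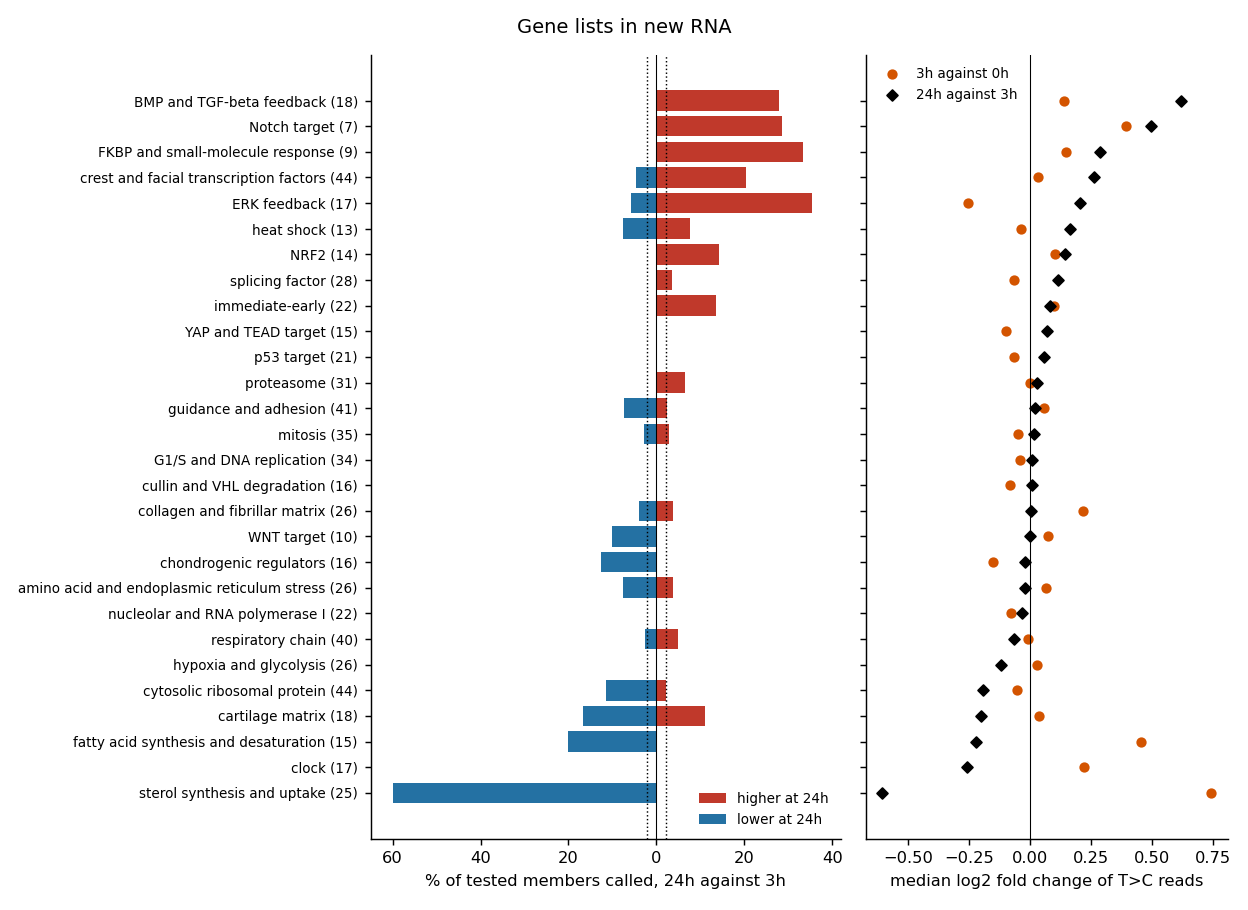
For each of 28 gene lists, the share of tested members called higher and lower at 24h against 3h in T>C reads is shown beside the shares of all genes (dotted, 2.23% and 2.18%), and the medians of the log2 fold change in the first and in the later interval. The sterol list has the largest share called lower, 15 of 25, and its medians lie on opposite sides of 0, at 0.74 and −0.60.

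The share of a gene's reads that carry T>C changes was tested as a separate measure, which follows new against older RNA of the same gene. Of 11361 genes, 75 had a higher ratio of T>C to unconverted reads at 24h (0.66%) and 308 a lower one (2.71%). Both counts are relative to the library-wide ratio, which was higher at 24h. With library sizes not adjusted by TMM the split was 111 higher and 172 lower, and without S9CC13_R6 it was 4 and 45. Of the sterol genes 13 of 25 were lower and 0 higher, and 7 of 15 fatty acid genes were lower, among them SCD, FASN, ACLY and ACSS2. Of the 28 genes that returned after a rise 14 were lower. Without S9CC13_R6 these counts were 9, 3 and 10. In these genes the T>C reads were lower relative to the unconverted reads, but the unconverted reads did not fall in all of them. In DHCR7 both fell, by 1.21 in T>C reads and 0.36 in unconverted reads (log2). In FADS2 the T>C reads showed −0.36 and the unconverted reads rose by 0.40 (DESeq2 adjusted p = 0.022). In ELOVL5 the T>C reads showed 0.04 and the unconverted reads 0.35. NOS1 had 26.4%, 33.3% and 36.8% of its reads as T>C reads at 3h and 20.6%, 21.6% and 21.3% at 24h, a change of −1.12 in the log2 ratio (edgeR adjusted p = 0.000304).

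Among the largest changes of the ratio, several came with a change in unconverted reads. OPRD1, the delta opioid receptor, had 36.1%, 39.0% and 46.8% at 0h, 15.7%, 21.5% and 21.7% at 3h and 58.4%, 68.4% and 45.5% at 24h. The share dropped in each culture and then rose in each, to above its 0h value in all but S9CC47_R6. Its T>C reads stayed low (29.1, 25.1 and 21.0 at 3h and 42.7, 27.0 and 25.9 at 24h, 0.32, adjusted p = 0.735), and its unconverted reads went from 121, 86.1 and 76.5 to 31.1, 13.8 and 36.2, a fall of 1.80 on the log2 scale. ITGA6, an integrin that binds laminin, dipped and rose likewise, with 6.59%, 11.4% and 14.1% at 3h and 33.3%, 41.3% and 19.6% at 24h, T>C reads of 14.6, 16.5 and 30.3 and then 20.9, 19.7 and 13.3, and unconverted reads that fell by 1.76. In both genes the T>C reads had changed before 3h, by −2.29 in OPRD1 and −2.42 in ITGA6, and the unconverted reads changed more after 3h than before it, where they showed −0.95 and −0.62. PTP4A3, a phosphatase, had a lower ratio (−1.11) and T>C reads that did not pass (−0.59).

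**Figure D5:**
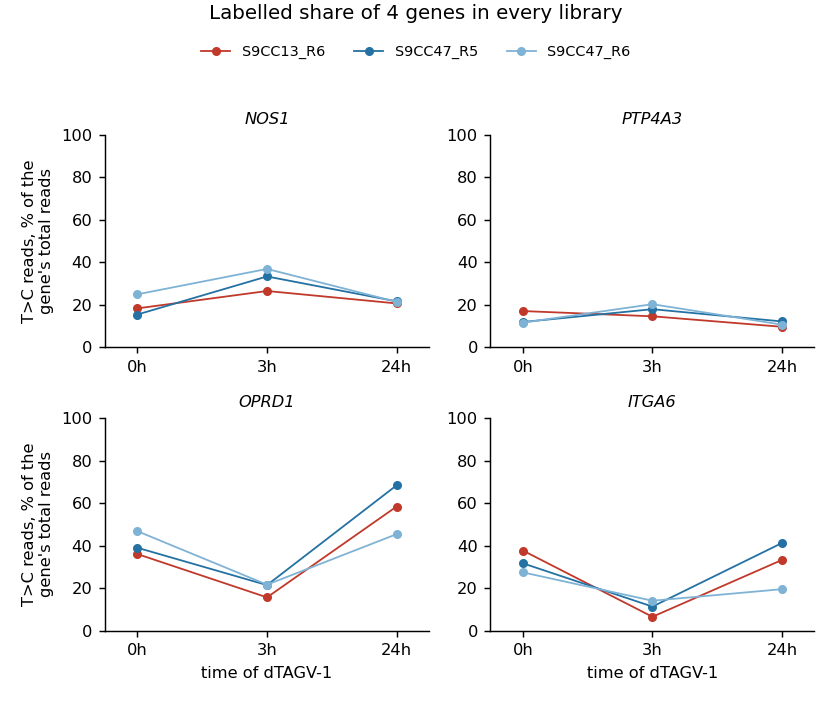
T>C reads as a percent of all reads of the gene, at 0h, 3h and 24h in each culture, for 4 of the genes with the largest changes of the ratio, OPRD1 and ITGA6 upward and NOS1 and PTP4A3 downward. OPRD1 and ITGA6 dip at 3h and recover at 24h, and NOS1 peaks at 3h and ends at 20.6% to 21.6%.

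Total reads, old and new RNA together, differed at more genes, 1544 of 11710 (13.2%), with 846 higher (7.22%) and 698 lower (5.96%). Without S9CC13_R6 the count was 123, with 40 higher and 83 lower, and in the study's design 294 were higher and 337 lower. In the paired fit of total reads over all cultures, the sterol list had 1 higher and 12 lower and the BMP and TGF-beta list 8 higher and 2 lower. The collagen list had 10 higher and 3 lower with a median of 0.33, the chondrogenic regulators 0 higher and 5 lower, and the proteasome 8 higher and 1 lower. Without S9CC13_R6 the sterol list had 0 higher and 6 lower, the BMP and TGF-beta list 3 and 1, the collagen list 2 and 2, the chondrogenic regulators 0 and 2, and the proteasome 0 in either direction by DESeq2, with 3 of 31 at an unadjusted p below 0.05. Some genes were called in total reads with an unadjusted DESeq2 p over 0.05 in T>C reads, which does not show an absence of change there. PLEKHB1, a membrane-associated protein, had 94.9, 87.3 and 104 normalized total reads at 0h, 82.0, 45.7 and 49.5 at 3h and 0, 2.24 and 0 at 24h (adjusted p = 3.25e-07). Its T>C reads were 14.6, 24.2 and 10.7 at 0h, 1.32, 2.60 and 0 at 3h and 0 in every 24h library, so they were near 0 at 3h already, while total reads were not. MIA, a secreted protein of cartilage and melanoma cells, went from 151, 130 and 156 to 20.3, 26.8 and 25.5 total reads and fell by 2.59 on the log2 scale, and FGFBP2, a secreted FGF-binding protein, from 95.3, 89.8 and 98.9 to 14.5, 7.83 and 11.5 and fell by 3.07. Upward, SLC7A8, an amino acid transporter, rose by 1.63 in total reads, and INHBA, the activin A subunit, and ITGA8, an integrin, by 1.22 each, the last pair not without S9CC13_R6 (0.62 and 0.54). INHBA had 11.9, 38.1 and 29.2 T>C reads at 3h and 51.2, 40.5 and 47.4 at 24h, which do not overlap yet do not pass (0.81, adjusted p = 0.454).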

How the data were processed

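T>C read counts and total read counts per gene were deposited by the authors for 9 libraries, as whole numbers not normalized. Per the study's methods, 3′ end (QuantSeq) reads were trimmed with skewer and mapped and counted with slamdunk, and the labels name build hg38. The annotation and strand setting of the counting are not given in the sources used here. No value column was left unused. Groups came from the sample titles. Members and gene lists were chosen with earlier results of these data known.

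Genes kept at 1 CPM in 3 libraries were fitted with DESeq2 1.42.0 (R 4.3.3), with time and culture as terms, over all 9 libraries, with Benjamini-Hochberg adjustment and calls below 0.1. Culture was a term because titles give clone and differentiation batch for each library. Deviations of same-culture libraries correlated in T>C reads at 0.131 on average (0.0169 to 0.286 over 9 pairs) and in total reads at 0.273 (−0.0566 to 0.606). The ratio of T>C to unconverted counts was tested with edgeR 4.0.16 quasi-likelihood, as an interaction of time with read type. Unconverted counts are total minus T>C counts. P-values rest on the spread left among libraries after the terms for culture and time, in 3 cultures of 2 clones. They do not measure the spread between clones. Alternatives were the study's design (batch and 1 surrogate variable, sva 3.50.0), edgeR, TMM, scaling by total reads, other filters and each culture left out. The fits were tested on simulated data.

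Genes were named by fixed rules. These are SOX9 and 4 genes the study names, up to 5 largest changes per class among genes called with and without the pairing, up to 3 per direction in total reads and ratio, each with a mean of at least 50 reads, and up to 4 called members per list with the smallest p. The other members of the small returning and further-growing classes, of the sterol, ERK, BMP and transcription factor lists, and STRA6, CRABP1 and CRABP2 were named after their values were seen. Some genes that these rules pick are not reported here. Symbols were matched to GENCODE 44 for coordinates and opposite-strand overlaps. Promoters are RefSeq windows. Counting error only is covered by read depth, since libraries hold no molecule identifiers in these tables.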

Additional observations from a re-analysis of the deposited data

Results flagged for a closer look

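The change from 0h differed between 3h and 24h in T>C reads at 530 genes and in total reads at 1544 genes, each tested as the difference itself. DUSP6 was called lower at 3h and higher at 24h against 0h, with a log2 fold change of 1.07 at 24h against 3h.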

How the results depend on the processing

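Every one of the 76 named genes that were called stayed called with edgeR and with TMM factors, 66 did with scaling by total reads, 49 in the study's design without the replicate block, and 35, 51 and 47 without S9CC13_R6, S9CC47_R5 and S9CC47_R6. The named examples of each class were picked among genes called in the study's design, so their calls there were fixed by the choice. Of all 530 called genes, 122 were called in that design. The 530 calls in T>C reads became 811 with edgeR, 1473 with scaling by total reads, 349 at an adjusted p below 0.05, 137 in the study's design without the replicate block, 60 with the replicate block and 1 surrogate variable, and 60 to 158 with 1 culture left out. The 1544 calls in total reads became 631 in the study's design without the replicate block, 901 with batch only, 858 with no covariates, 248 with the replicate block and a surrogate variable, 920 at 0.05 and 123 to 833 with 1 culture left out. Ratio calls (383) became 158 without the replicate block, 207 at 0.05 and 49 to 223 with 1 culture left out, and unconverted calls (1166) became 529 in the study's design.

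Late-only genes numbered 69 in the study's design, 378 with edgeR, 155 at 0.05 and 30 to 100 with 1 culture left out. Genes called between the times only numbered 25, 378, 152 and 17 to 96, and 1071 with scaling by total reads. With 1 culture left out, 10 to 22 genes returned and 3 to 5 grew further. Leaving out a culture reduces the libraries fitted, and each culture left out lowered the count. Medians of lists relative to all genes that moved by more than the spread between cultures in the study's design were −0.31 for fatty acid, −0.057 for immediate-early, 0.14 for ERK feedback, 0.56 for BMP and TGF-beta, −0.026 for clock, −0.040 for heat shock, 0.15 for chondrogenic and 0.20 for crest factor genes. With 1 culture left out they ranged from −0.41 to −0.19 for fatty acid, 0.076 to 0.15 for immediate-early, 0.11 to 0.25 for ERK feedback, 0.53 to 0.64 for BMP and TGF-beta, −0.071 to 0.12 for WNT, −0.31 to −0.034 for clock, −0.072 to 0.091 for amino acid and endoplasmic reticulum stress, −0.13 to −0.036 for chondrogenic, −0.083 to 0.17 for collagen, −0.084 to 0.0050 for respiratory chain, −0.050 to 0.11 for cullin and VHL, −0.18 to 0.44 for FKBP and small-molecule, and −0.075 to −0.0026 for nucleolar genes. The causes were not tested. Genes under about 1 CPM in T>C reads could not be tested, ACAN and SOX10 among them.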
